A study of Mus musculus with 50 samples.

Results

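The long non-coding RNAs Neat1, Malat1, Firre, Gas5 and Mir17hg, grouped here as nuclear RNAs, were followed through mouse embryonic stem cells that lack enzymes of histone H3 lysine 9 methylation. They are 5 of the 24412 gene rows in a first deposited table of transcript levels and 5 of the 24411 gene rows in a second one, where transgene rows were set aside. They were chosen by name, for 2 patterns already seen in these tables: their levels after loss of the methyltransferase Setdb1 in the first table, and a gap between libraries of the same group in the second. Both patterns are therefore given as values only. The Setdb1-null libraries of the first table helped to choose the RNAs, so any comparison with them is also given without a p for the RNAs, and tests are kept for the rest. No cell fraction was measured, so their place inside the cell was not tested here.

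The cells were TT2 embryonic stem cells, and 50 libraries in 25 groups of 2 were read from poly(A)-selected RNA with a stranded kit. The 9 groups of the first table were Dux-KO:G9a;Suv39h1/2;Setdb1-QKO, the same quadruple knockout with Dux intact (G9a;Suv39h1/2;Setdb1-QKO, called QKO from here on), G9a;Suv39h1/2-TKO, G9a;Setdb1-DKO, G9a-KO, Suv39h1/2;Setdb1-TKO, Suv39h1/2-DKO, Setdb1-KO and control. The second table held these genotypes other than Dux-KO QKO, in 16 groups, with and without doxycycline. All of its cells, control included, lacked the endogenous Dux gene and carried a doxycycline-inducible Dux (Tet-on-Dux), a transcription factor of the early embryo. The doxycycline label was 0.2 for control and Setdb1-KO and 1 for the other 6 genotypes, with no unit given. The titles name 1 line for each pair of genotypes that differ in Setdb1, so the line cannot be told apart from loss of G9a or of Suv39h1/2. Dux-KO QKO carries a further line name, so the line cannot be told apart from Dux loss either. Every Setdb1-null title carries the tag OHT and every other title the tag NT, and any effect of OHT, which the labels do not explain, is confounded with Setdb1 loss and cannot be told apart. The labels do not call the 2 libraries of a group separate cultures, so p-values measure only the spread between these libraries.

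Neat1 is the scaffold of paraspeckles, nuclear bodies that hold RNA-binding proteins and some edited RNAs, and Malat1 gathers in nuclear speckles beside splicing factors. Both are transcribed from neighbouring genes, and the ends of Malat1 and of the long Neat1 form are made by RNase P and protected by a triple helix instead of a poly(A) tail. Firre is an X-linked repeat-rich RNA that binds hnRNP U and touches several chromosomes. Gas5 carries small nucleolar RNAs (snoRNAs) in its introns and is turned over by nonsense-mediated decay in the cytoplasm, so it is not a nuclear RNA in the way that Malat1 is. Mir17hg is the primary transcript of the miR-17-92 cluster, which Drosha cuts in the nucleus. SETDB1, G9a and SUV39H1/2 place methyl groups on histone H3 lysine 9, and SETDB1 is known for silencing retroviruses in embryonic stem cells.

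In GENCODE M21 (GRCm38), Neat1 lies at chr19:5824708-5845478 on the minus strand, a single exon of 20771 bases in its longest form, and Malat1 at chr19:5795690-5802672 on the same strand. Firre lies at chrX:50555744-50635321 on the minus strand, with 20 exons and 5555 bases in its longest transcript. Gas5 lies at chr1:161034422-161038539 on the plus strand with 10 annotated snoRNA entries inside it, Snord80 being entered more than once at nearly the same place. Gas5 overlaps Zbtb37 on the other strand, whose highest level was 4.53 TPM in the first table and 2.91 TPM in the second. Mir17hg lies at chr14:115042879-115046727 on the plus strand. The mature arms of its 6 hairpins follow, since they are what the host transcript is made for. They are from RefSeq (GRCm38.p6), on the plus strand, 5′ to 3′, with the seed, bases 2 to 8, in capitals. The first sits at chr14:115043684-115043706 and the last at chr14:115044476-115044496.
mmu-miR-17-5p: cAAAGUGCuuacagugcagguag
mmu-miR-20a-5p: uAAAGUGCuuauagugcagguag
mmu-miR-18a-5p: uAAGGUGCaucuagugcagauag
mmu-miR-19a-3p: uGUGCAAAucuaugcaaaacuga
mmu-miR-19b-3p: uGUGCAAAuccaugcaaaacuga
mmu-miR-92a-3p: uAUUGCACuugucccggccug
The 6 arms hold 4 different seeds: miR-17-5p and miR-20a-5p share 1, and miR-19a-3p and miR-19b-3p share another. The 6 hairpin rows were 0 TPM in all 50 libraries, so the Mir17hg values below are of the host transcript and say nothing of mature miRNA levels.

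Because the libraries were selected on poly(A), the longest run of A inside Malat1 and inside Neat1 is shown, in the transcript sense and with the run in capitals. The Malat1 window is chr19:5795963-5796024 and the Neat1 window chr19:5835909-5835965, both on the minus strand of GRCm38.
Malat1: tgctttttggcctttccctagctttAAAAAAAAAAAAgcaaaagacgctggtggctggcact
Neat1: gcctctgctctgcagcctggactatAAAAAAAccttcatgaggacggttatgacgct
The Malat1 run has 12 A and ends 298 bases before the annotated transcript end, and 4.07% of 141767 annotated transcripts hold a run as long. The Neat1 run has 7 A, a length reached in 22.3% of transcripts. How either RNA was captured was not tested.

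The promoters of Malat1 and Firre are shown because, after Setdb1 loss in the first table, the largest Malat1 change was upward and the largest Firre change downward. Each runs from 250 bases before to 50 bases after the RefSeq start on the minus strand (GRCm38.p6), at chr19:5802623-5802922 for Malat1 and chrX:50635272-50635571 for Firre, with motif matches in capitals.
Malat1 promoter: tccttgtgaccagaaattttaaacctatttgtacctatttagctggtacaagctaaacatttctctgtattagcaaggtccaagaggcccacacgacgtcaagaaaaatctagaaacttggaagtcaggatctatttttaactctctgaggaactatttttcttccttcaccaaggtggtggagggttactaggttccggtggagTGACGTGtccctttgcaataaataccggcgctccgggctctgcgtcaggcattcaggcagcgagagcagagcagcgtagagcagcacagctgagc
Firre promoter: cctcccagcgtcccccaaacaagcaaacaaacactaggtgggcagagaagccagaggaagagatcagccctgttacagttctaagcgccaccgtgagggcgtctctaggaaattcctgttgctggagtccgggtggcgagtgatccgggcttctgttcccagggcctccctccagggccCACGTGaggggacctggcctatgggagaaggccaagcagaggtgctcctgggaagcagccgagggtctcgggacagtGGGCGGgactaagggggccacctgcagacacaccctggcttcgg
The letters searched, on both strands, were CACGTG (E-box), TGACGTCA (cAMP response element, CRE), TGACGTG (a shorter CRE), TATAAA (a core promoter element), CCAAT (NF-Y motif) and GGGCGG (GC box). Malat1 held TGACGTG at position -45, found in 2.01% of 32851 promoters. Firre held CACGTG at position -71, found in 7.15%, and GGGCGG at position 6, found in 35.7%. These are matches of letters, not sites.

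Levels are given as TPM, a transcript unit scaled for transcript length and for the library's total, and the read depth behind them is unknown. The first table had 11855 to 13274 genes at 1 TPM or more per library, and the second 11740 to 12688. Summed over 8 embryonic stem cell markers, levels were 6126 to 14550 TPM in the first table and 7451 to 13820 TPM in the second, and 7 fibroblast markers summed to at most 10.7 and 8.0 TPM. Ehmt2, which encodes G9a, had 7.38 to 30.2 TPM in the 10 G9a-null libraries of the first table, against 82.5 to 104 TPM in the other 8, and 1.95 to 6.58 TPM against 53.2 to 196 TPM in the second. Setdb1 had 19.8 to 36.5 TPM in the Setdb1-null libraries, against 41.4 to 53.2 TPM in the others of the first table, and 13.9 to 28.8 TPM against 29.2 to 71.0 TPM in the second. Suv39h1 ranges overlapped in the first table (11.1 to 22.9 TPM in null, 21.3 to 34.0 TPM in other libraries), as did Suv39h2 ranges (12.1 to 17.1 TPM and 14.4 to 27.2 TPM). Suv39h2 ranges also overlapped in the second table (6.88 to 12.4 TPM and 12.1 to 24.3 TPM), and Suv39h1 ranges did not (4.90 to 12.4 TPM and 14.4 to 30.8 TPM). Dux was 0 TPM in both Dux-KO QKO libraries, against 25.7 and 21.8 TPM in QKO libraries.

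In the first table, Neat1 and Firre had their lowest means in the Setdb1-null groups that kept G9a, Setdb1-KO and Suv39h1/2;Setdb1-TKO. Malat1 had its highest means in the Setdb1-null groups that also lacked G9a. Mir17hg was highest in G9a-KO, and Gas5 was lowest in Setdb1-KO. Fewer cells that make an RNA and less of it per cell cannot be told apart in bulk libraries such as these. Overlap of groups, here and below, describes 2 libraries set against 2. The share of all genes that stand apart in the same way is not given, so lack of overlap is no evidence of a change.

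**Figure D1:**
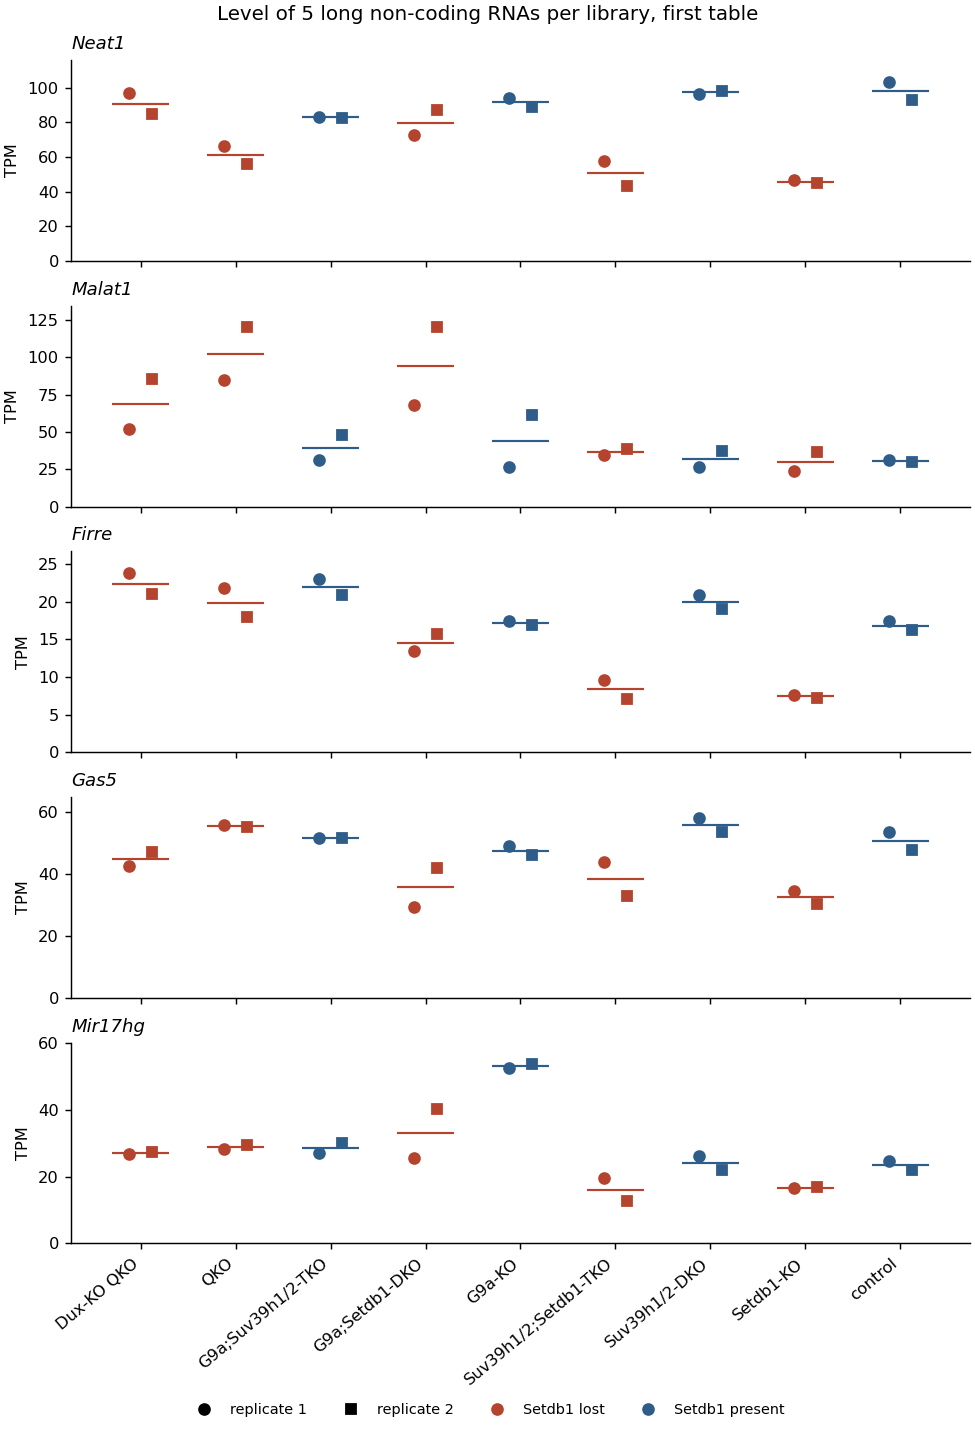
TPM of each RNA (vertical axis, linear, from 0) in the 18 libraries of the first table, by group. Circles are replicate 1, squares replicate 2, bars the mean of 2; red marks Setdb1-null groups. Neat1 averages 45.6 TPM in Setdb1-KO and 98.1 TPM in control, and Malat1 102 TPM in QKO and 30.4 TPM in control.

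The Neat1 values are for the whole gene, which has 4 annotated transcripts of 711 to 20771 bases. Its long and short forms were not told apart in this poly(A)-selected RNA. Neat1 had 46.5 and 44.7 TPM in Setdb1-KO, against 103 and 92.8 TPM in control. It had 57.7 and 43.3 TPM in Suv39h1/2;Setdb1-TKO, against 96.6 and 98.1 TPM in Suv39h1/2-DKO. In neither pair did the groups overlap, and the fold changes on the log2(TPM + 1) scale were -1.09 (standard error, SE, 0.13) and -0.95 (SE 0.13). Where G9a was also missing, Neat1 had 72.6 and 87.0 TPM in G9a;Setdb1-DKO, against 94.0 and 89.1 TPM in G9a-KO, a change of -0.20. It had 66.1 and 56.1 TPM in QKO, against 83.0 and 82.7 TPM in G9a;Suv39h1/2-TKO, a change of -0.44. The groups did not overlap there either, though the gap between the nearest G9a;Setdb1-DKO and G9a-KO libraries was small. In order of mean level, Neat1 ran from control (98.1 TPM) through Suv39h1/2-DKO, G9a-KO, Dux-KO QKO, G9a;Suv39h1/2-TKO, G9a;Setdb1-DKO, QKO and Suv39h1/2;Setdb1-TKO (50.5 TPM) to Setdb1-KO (45.6 TPM), and 5 of the 8 neighbouring pairs had overlapping libraries.

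Firre, the X-linked RNA, had 7.59 and 7.24 TPM in Setdb1-KO, against 17.4 and 16.2 TPM in control. It had 9.64 and 7.12 TPM in Suv39h1/2;Setdb1-TKO, against 20.9 and 19.0 TPM in Suv39h1/2-DKO. These are changes of -1.08 and -1.17 (SE 0.14 each), with no overlap of groups. In lines without G9a, Firre had 13.4 and 15.6 TPM in G9a;Setdb1-DKO, against 17.4 and 16.9 TPM in G9a-KO. It had 21.8 and 17.9 TPM in QKO, against 23.0 and 20.8 TPM in G9a;Suv39h1/2-TKO, where the libraries overlapped. Those changes were -0.23 and -0.14. The highest mean was in Dux-KO QKO (22.4 TPM), and 5 of 8 neighbours in the order overlapped.

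Malat1, the nuclear speckle RNA, went the other way in lines without G9a. It had 68.0 and 120.1 TPM in G9a;Setdb1-DKO, against 26.6 and 61.6 TPM in G9a-KO, and 84.6 and 120.0 TPM in QKO, against 31.0 and 48.0 TPM in G9a;Suv39h1/2-TKO. The groups did not overlap, and the changes were 1.14 and 1.36 (SE 0.37 each). With G9a present, Malat1 had 23.7 and 36.7 TPM in Setdb1-KO, against 31.2 and 29.6 TPM in control. It had 34.5 and 38.4 TPM in Suv39h1/2;Setdb1-TKO, against 26.5 and 37.4 TPM in Suv39h1/2-DKO. Both of these pairs overlapped, with changes of -0.04 and 0.20. Its libraries were the least alike of the 5 RNAs: replicate 2 was above replicate 1 in 8 of 9 groups, by up to 2.27-fold on the TPM + 1 scale, and all 8 neighbours in the order of means overlapped.

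Gas5, the snoRNA host, had 34.5 and 30.5 TPM in Setdb1-KO, against 53.8 and 47.8 TPM in control, a change of -0.63 (SE 0.16). It had 43.8 and 32.8 TPM in Suv39h1/2;Setdb1-TKO, against 58.0 and 53.6 TPM in Suv39h1/2-DKO, and 29.4 and 42.1 TPM in G9a;Setdb1-DKO, against 49.0 and 46.3 TPM in G9a-KO. It had 56.0 and 55.1 TPM in QKO, against 51.7 and 51.6 TPM in G9a;Suv39h1/2-TKO. None of the 4 pairs overlapped, and the last 3 changes were -0.54, -0.43 and 0.10, so Gas5 was lower in 3 Setdb1-null groups and slightly higher in QKO.

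Mir17hg, the miRNA host, had 16.5 and 16.9 TPM in Setdb1-KO, against 24.7 and 22.0 TPM in control, a change of -0.46 (SE 0.19). It had 19.6 and 12.6 TPM in Suv39h1/2;Setdb1-TKO, against 26.03 and 21.8 TPM in Suv39h1/2-DKO, a change of -0.57. It had 25.6 and 40.1 TPM in G9a;Setdb1-DKO, against 52.5 and 53.6 TPM in G9a-KO, a change of -0.71. Only the last pair of groups overlapped, with 28.1 and 29.4 TPM in QKO, against 27.0 and 30.2 TPM in G9a;Suv39h1/2-TKO and a change of 0.01.

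Of these 20 member values, 5 were past a 2-fold change on the log2(TPM + 1) scale. They were Neat1 and Firre in Setdb1-KO, Firre in Suv39h1/2;Setdb1-TKO and Malat1 in G9a;Setdb1-DKO and QKO. The share of all 13862 tested genes past that fold was 6.43% for Setdb1-KO, 6.56% for Suv39h1/2;Setdb1-TKO, 5.64% for G9a;Setdb1-DKO and 9.29% for QKO, each against the line with Setdb1. Since these contrasts chose the RNAs, nothing is read from that count. The medians of all genes were -0.12, -0.03, -0.02 and -0.07. With median ratio scaling, Neat1 stood at -0.94 and Firre at -0.95 in Setdb1-KO against control, and the count was 3. Without Suv39h1/2;Setdb1-TKO replicate 2, Firre stood at -0.98 against Suv39h1/2-DKO, and without replicate 1 Neat1 stood at -1.15. Malat1 in G9a;Setdb1-DKO stood at 0.55 without G9a-KO replicate 1 and at 0.73 without G9a;Setdb1-DKO replicate 2, and Mir17hg there at -1.02 without the same G9a;Setdb1-DKO library.

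Markers of other states moved in the same contrasts. All 6 markers of 2-cell-like cells (Zscan4 genes and others) were called higher in each of the 4 Setdb1-null groups, and none of the 6 was 0 in both libraries of a group. They summed to 1211 and 1361 TPM in Setdb1-KO, against 62.6 and 69.5 TPM in control, and to 4400 and 4507 TPM in QKO, against 179 and 199 TPM in G9a;Suv39h1/2-TKO. Of 20 p53 target genes, 5 to 7 were called higher in each contrast and at most 1 lower. Of 5 primitive endoderm markers, 5 were called lower in QKO, where they summed to 94.2 and 83.7 TPM, against 356 and 331 TPM in G9a;Suv39h1/2-TKO, and 2 in G9a;Setdb1-DKO, with 147 and 172 TPM, against 334 and 306 TPM in G9a-KO. In lines with G9a, 2 of the 5 were called higher in Setdb1-KO, with 87.7 and 106 TPM, against 51.0 and 47.2 TPM in control, and 1 in Suv39h1/2;Setdb1-TKO. Their part in the values of the 5 RNAs was not tested. The share of all genes called by the test explained below was 6.28%, 6.41%, 5.43% and 9.1% for Setdb1-KO, Suv39h1/2;Setdb1-TKO, G9a;Setdb1-DKO and QKO.

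**Figure D2:**
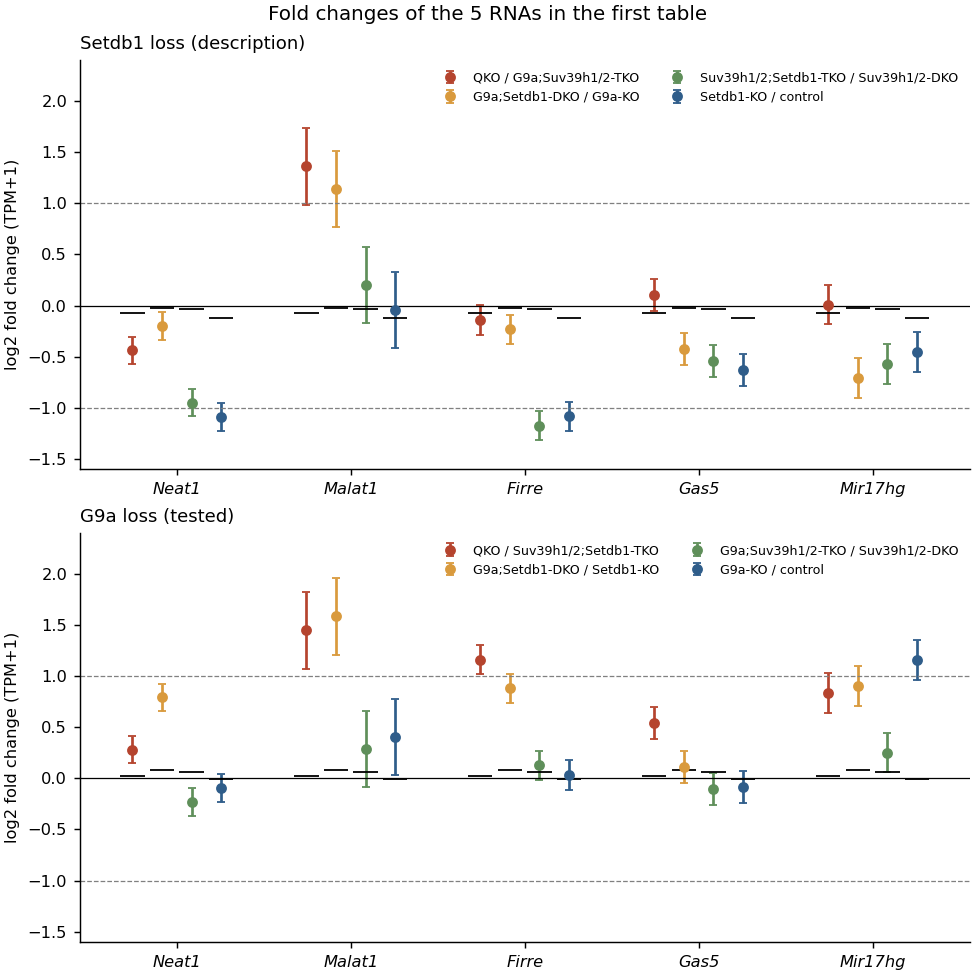
Change of each RNA on the log2(TPM + 1) scale in the first table, Setdb1 loss above and G9a loss below; points are the fitted changes, bars ± 1 SE from limma (2 libraries a group), black dashes the median of all tested genes, dashed lines a 2-fold change. Neat1 and Firre sit near -1 after Setdb1 loss where G9a is present, and Malat1 sits at 1.58 and 1.44 after G9a loss where Setdb1 is absent.

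Loss of G9a with Setdb1 present was tested with limma across all genes, on the control and Suv39h1/2-DKO backgrounds. These 4 groups stand on the Setdb1-intact side of the contrasts that chose the RNAs, so they share libraries with that choice. Mir17hg was higher in G9a-KO than in control, and no other RNA passed. A call here is an adjusted p below 0.05 (Benjamini-Hochberg) and at least a 2-fold change, and 1 of 10 member results was called. The share of all genes called was 9.26% for G9a-KO against control and 6.25% for G9a;Suv39h1/2-TKO against Suv39h1/2-DKO. The member count is close to these shares, so nothing is read from it about the RNAs as a group.

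Mir17hg had 52.5 and 53.6 TPM in G9a-KO, against 24.7 and 22.0 TPM in control. Both G9a-KO libraries were above both control libraries, and the change of 1.15 (SE 0.19) had a limma adjusted p of 0.000305. It was called under all 9 settings tried, between 1.07 and 1.23. The other 4 RNAs overlapped between these groups, with changes of -0.10 for Neat1, 0.40 for Malat1, 0.03 for Firre and -0.09 for Gas5. The primitive endoderm list moved in the same comparison: all 5 of its markers (Gata4, Gata6 and others, none at 0 in both libraries of a group) were called higher and summed to 334 and 306 TPM in G9a-KO, against 51.0 and 47.2 TPM in control. Their part in the Mir17hg value was not tested. In G9a;Suv39h1/2-TKO, where these markers summed to 356 and 331 TPM, against 95.6 and 91.1 TPM in Suv39h1/2-DKO, Mir17hg had 27.0 and 30.2 TPM, against 26.03 and 21.8 TPM, a change of 0.25 (limma adjusted p = 0.393).

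With Setdb1 absent, the libraries set against each other are those that chose the RNAs, so the values are a description. Malat1 had 68.0 and 120.1 TPM in G9a;Setdb1-DKO, against 23.7 and 36.7 TPM in Setdb1-KO, a change of 1.58 (SE 0.37) with no overlap. It was 1.18 without G9a;Setdb1-DKO replicate 2 and 1.28 without Setdb1-KO replicate 1. Neat1, Firre and Mir17hg changed by 0.79, 0.88 and 0.90, under 2-fold, and Mir17hg by 1.22 without G9a;Setdb1-DKO replicate 1 and by 0.59 without replicate 2. Gas5 had 29.4 and 42.1 TPM in G9a;Setdb1-DKO, against 34.5 and 30.5 TPM in Setdb1-KO, which overlap.

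In the line without any of the 4 enzymes, Firre had 21.8 and 17.9 TPM in QKO, against 9.64 and 7.12 TPM in Suv39h1/2;Setdb1-TKO. The groups stood apart, and the change was 1.16 (SE 0.14), or 0.96 without Suv39h1/2;Setdb1-TKO replicate 2. Malat1 had 84.6 and 120.0 TPM in QKO, against 34.5 and 38.4 TPM in Suv39h1/2;Setdb1-TKO, a change of 1.44 (SE 0.37) with no overlap, and 1.19 without QKO replicate 2. Gas5 changed by 0.54 and Mir17hg by 0.83, both with no overlap, and these were 0.34 and 0.53 without Suv39h1/2;Setdb1-TKO replicate 2. Neat1 overlapped, at 0.28. Of the 10 values with Setdb1 absent, 3 were past 2-fold, Malat1 in both comparisons and Firre in QKO, and the share of all genes called was 8.64% for G9a;Setdb1-DKO against Setdb1-KO and 7.31% for QKO against Suv39h1/2;Setdb1-TKO. Nothing is read from that count.

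Of 13 listed RNAs that have no poly(A) tail, 4 were tested. In G9a;Setdb1-DKO against Setdb1-KO, 1 was called higher and 1 lower, and in QKO against Suv39h1/2;Setdb1-TKO 0 higher and 1 lower, with medians over the 4 of 1.25 and 0.34 beside 0.08 and 0.02 over all genes. Rpph1, the RNA of RNase P, averaged 152 ± 68.5 TPM in G9a;Setdb1-DKO and 63.1 ± 8.72 TPM in Setdb1-KO (SD, n = 2 each), and 9.12 ± 6.50 TPM in QKO and 58.1 ± 1.95 TPM in Suv39h1/2;Setdb1-TKO. Rmrp, the RNA of RNase MRP, averaged 28.6 ± 4.02 TPM in G9a;Setdb1-DKO and 81.6 ± 22.2 TPM in Setdb1-KO. By limma, Rpph1 changed by 1.18 (adjusted p = 0.0466) in the first pair and by -2.71 (adjusted p = 0.000219) in the second. Rmrp changed by -1.46 (limma adjusted p = 0.000805) in the first and was not called in the second. The 2-cell-like list moved in these comparisons too: 3 of 6 were called higher in G9a;Setdb1-DKO, summing to 2084 and 2192 TPM, against 1211 and 1361 TPM in Setdb1-KO, and 6 of 6 in QKO, summing to 4400 and 4507 TPM, against 899.8 and 890.3 TPM in Suv39h1/2;Setdb1-TKO. Neither their part nor that of the untailed RNAs in the Malat1 values was tested.

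Loss of Suv39h1/2 with Setdb1 present gave no member call. By limma, 0 of 10 member results were called, 2 had an unadjusted p below 0.05 and 1 an adjusted p below 0.05. The share of all genes called was 0.541% for Suv39h1/2-DKO against control and 1.61% for G9a;Suv39h1/2-TKO against G9a-KO. Mir17hg had 27.0 and 30.2 TPM in G9a;Suv39h1/2-TKO, against 52.5 and 53.6 TPM in G9a-KO, a change of -0.87 (SE 0.19, limma adjusted p = 0.00945). The adjusted p was 0.0544 and 0.0707 by limma without G9a-KO replicate 1 and replicate 2, and 0.0817 without G9a;Suv39h1/2-TKO replicate 1. With Setdb1 absent, 0 of 10 values were past 2-fold, and the share of all genes called was 0.0938% for Suv39h1/2;Setdb1-TKO against Setdb1-KO and 3.25% for QKO against G9a;Setdb1-DKO. In that last comparison Gas5 changed by 0.64, with 0.39 without G9a;Setdb1-DKO replicate 1, and Firre by 0.42, with 0.29 without QKO replicate 1. The interaction of G9a and Suv39h1/2 loss with Setdb1 present, called at an adjusted p below 0.05 alone, was called for 0 of 5 RNAs and 4.43% of all genes, with 1 member at an unadjusted p below 0.05. That member was Mir17hg, at -0.90 (SE 0.27, limma adjusted p = 0.0855), and 0.0253 with median ratio scaling.

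Loss of Dux in QKO cells is set against the QKO libraries that helped to choose the RNAs, and its values are a description too. Dux-KO QKO and QKO are named as different lines, so line and Dux loss cannot be told apart. None of the 5 RNAs changed 2-fold, and 6.54% of all genes were called. Neat1 had 96.8 and 84.5 TPM in Dux-KO QKO, against 66.1 and 56.1 TPM in QKO. The groups stood apart, with a change of 0.56 (SE 0.13) beside an all-gene median of 0.22. With median ratio scaling the change was 0.32. Malat1 overlapped, with 51.8 and 85.3 TPM in Dux-KO QKO, against 84.6 and 120.0 TPM in QKO. The 2-cell-like list summed to 22.7 and 24.0 TPM in Dux-KO QKO, against 4400 and 4507 TPM in QKO. Primitive endoderm markers, 4 of 5 of them called higher, summed to 207 and 203 TPM in Dux-KO QKO, against 94.2 and 83.7 TPM in QKO, and 5 trophoblast markers, 1 of the 3 tested called higher, to 101 and 105 TPM, against 53.9 and 45.2 TPM. Their part in the Neat1 change was not tested. Comparisons in the first table share libraries with one another, so their values are set side by side and not counted as separate evidence.

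Genes that work with these RNAs were listed with earlier results of these data known. Protein partners showed no calls by limma: 0 of 18 paraspeckle proteins, 0 of 14 nuclear speckle proteins, 0 of 16 genes of the nuclear exosome and nonsense-mediated decay, 0 of 9 miRNA processing genes and neither of the Firre partners Hnrnpu and Ctcf were called in any of the 13 comparisons of the first table. In Setdb1-KO against control the paraspeckle list had a median of -0.45, beside -0.12 over all genes. In G9a-KO against control it had -0.08, beside -0.01. The share of all genes called ran from 0.0938% to 9.26% over these comparisons, so lists this short are not shown to differ from other genes.

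Among 5 transcription factors reported at the Mir17hg promoter, Mycn was called higher in each of the 4 comparisons of G9a loss and no other was called in them. Mycn averaged 99.8 ± 2.42 TPM in G9a-KO and 48.1 ± 2.10 TPM in control (SD, n = 2 each), a change of 1.04 (SE 0.14, limma adjusted p = 3.86e-05). In G9a;Suv39h1/2-TKO, where the Mir17hg change was 0.25, Mycn averaged 102.0 ± 2.63 TPM, and 45.6 ± 1.45 TPM in Suv39h1/2-DKO. Of 11 reported targets of miR-17-92, 2 were called higher and 0 lower in G9a-KO against control: the receptor Tgfbr2, with 5.72 ± 0.15 TPM in G9a-KO and 1.13 ± 0.03 TPM in control, and Ctgf, with 41.9 ± 1.54 TPM and 20.3 ± 1.3 TPM. The target list had a median of 0.24 there, and 9.26% of all genes were called. With so few targets listed, nothing is read from their count.

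Other nuclear or chromatin-bound non-coding RNAs, 14 of which were tested, were called higher 3 to 5 times and lower 0 or 1 times in each comparison of G9a loss, with medians of 0.55 to 0.73 beside all-gene medians of -0.01 to 0.08. The largest changes came from the imprinted Dlk1-Dio3 cluster. Rian averaged 83.4 ± 3.87 TPM in G9a-KO and 0.18 ± 0.11 TPM in control, a change of 6.16 (SE 0.12, limma adjusted p = 5.08e-14), and Meg3 64.7 ± 7.05 TPM in G9a-KO and 0.034 ± 0.041 TPM in control. Among 19 tested snoRNA hosts, Gas5 included, 1, 0, 1 and 3 were called higher and 0 lower in the comparisons of G9a loss, with medians of -0.01 to 0.30. Snhg14 was called in 3 of them, with 27.0 ± 4.93 TPM in G9a-KO and 6.31 ± 0.76 TPM in control. The share of all genes called was 6.25% to 9.26% in the comparisons of G9a loss, and nothing is read from the snoRNA host counts.

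Across the 18 libraries of the first table, which share genotypes and lines, the genes most like each RNA in log2(TPM + 1) were Akna (Pearson r = 0.94), Dlgap4 and Smyd3 for Neat1, and Txndc16 (r = 0.91), Foxn3 and Papolg for Malat1. They were Fbxo36 and Leprot for Firre, Cnpy1 (r = 0.89), Gpatch11 and Tagap1 for Gas5, and Diap2 (r = 0.92), Baz1a and Wt1 for Mir17hg. Among the 5 RNAs, r was 0.82 between Firre and Neat1, 0.78 between Firre and Gas5 and -0.02 between Malat1 and Neat1. These values describe 9 groups of 2 libraries and carry no test.

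In the second table all 5 RNAs were low in most libraries and high in 6, and in each of 6 groups they were high in 1 library and low in its replicate. The 6 high libraries were Tet-on-Dux control without doxycycline replicate 1, Setdb1-KO without doxycycline replicate 2 and at dose label 0.2 replicate 2, G9a-KO at dose label 1 replicate 2, and G9a;Setdb1-DKO replicate 2 without doxycycline and at 1. They were known from earlier results and are set here by the mean log2(TPM + 1) of 18 snoRNA hosts other than Gas5, which is 4.81 to 5.19 in them and 2.79 to 3.70 in the other 26, with the line drawn at 4. All 18 libraries of the first table had 4.93 to 5.46 on the same genes, though the tables were normalised separately. The other 10 groups hold no high library. Of the 6, 5 carry replicate number 2 and 1 carries replicate number 1.

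**Figure D3:**
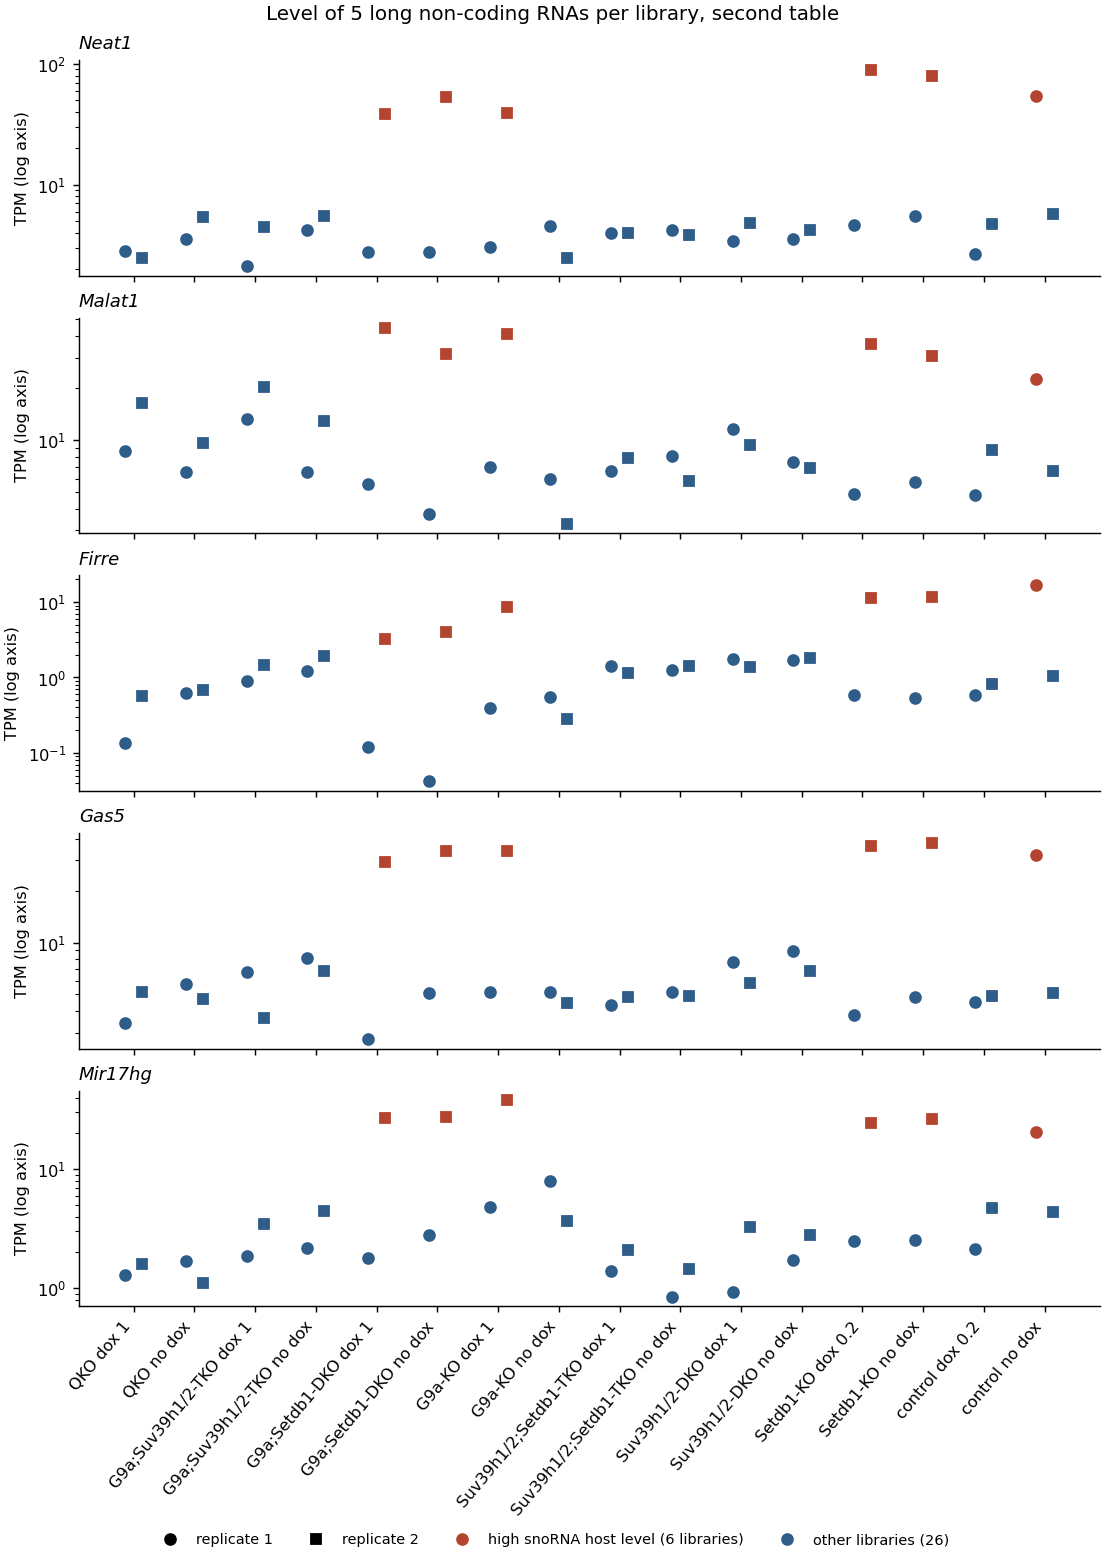
TPM of each RNA (vertical axis, log scale) in the 32 libraries of the second table, by genotype and doxycycline label. Circles are replicate 1, squares replicate 2; red marks the 6 libraries with a high snoRNA host level. Neat1 lies at 38.3 to 89.2 TPM in those 6 and at 2.13 to 5.78 TPM in the other 26.

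Neat1 had 54.7 TPM in the high and 5.78 TPM in the low control library, 80.0 and 5.55 TPM in Setdb1-KO without doxycycline, 89.2 and 4.66 TPM in Setdb1-KO at 0.2, 39.6 and 3.03 TPM in G9a-KO at 1, 53.1 and 2.76 TPM in G9a;Setdb1-DKO without doxycycline and 38.3 and 2.78 TPM at 1. The library pairs differed 8.22- to 15.9-fold on the TPM + 1 scale, against 1.01- to 1.74-fold in the other 10 groups. The lowest of the 6 high libraries was 6.63 times the highest of the other 26 in TPM, and by that gap on the log2(TPM + 1) scale (2.54) Neat1 ranked 1 of 13817 tested genes.

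Gas5 had, in the same order of groups, 31.9 and 5.13, 37.8 and 4.82, 36.1 and 3.82, 34.1 and 5.17, 34.1 and 5.07, and 29.1 and 2.77 TPM. Its range was 29.1 to 37.8 TPM in the 6 and 2.77 to 8.91 TPM in the other 26, a gap of 1.60 that ranked 4. Gas5 is a snoRNA host like the genes that set the 6 apart, so its place is no separate evidence.

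Mir17hg had 20.6 and 4.35, 26.3 and 2.54, 24.4 and 2.50, 37.8 and 4.82, 27.2 and 2.82, and 27.1 and 1.81 TPM in the high and low libraries of those groups. Its range was 20.6 to 37.8 TPM in the 6 and 0.85 to 7.89 TPM in the 26, a gap of 1.28 that ranked 20. The highest of the 26 was G9a-KO without doxycycline replicate 1, while its replicate 2 had 3.70 TPM, below the 4.35 TPM of the low control library. G9a-KO, as another line, had the highest Mir17hg mean in the first table. Whether that rise over control recurred cannot be read here. The control libraries without doxycycline, at 20.6 and 4.35 TPM, lie on both sides of the split, and the change ran from -1.74 to 0.27 over the settings tried. Among the 6 high libraries, the G9a-KO library at 1 was highest, with 37.8 TPM.

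Firre had 16.8 and 1.06, 11.6 and 0.54, 11.4 and 0.58, 8.57 and 0.40, 3.97 and 0.042, and 3.23 and 0.12 TPM. Both the high and the low library were lowest in G9a;Setdb1-DKO, and the gap of 0.53 ranked 124. Malat1 had 22.5 and 6.65, 30.7 and 5.75, 36.1 and 4.90, 41.0 and 6.95, 31.5 and 3.73, and 44.9 and 5.58 TPM. Its gap was the smallest of the 5, 0.13 (rank 461), and the highest of its 26 other libraries was G9a;Suv39h1/2-TKO at 1 replicate 2, with 20.4 TPM.

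**Figure D4:**
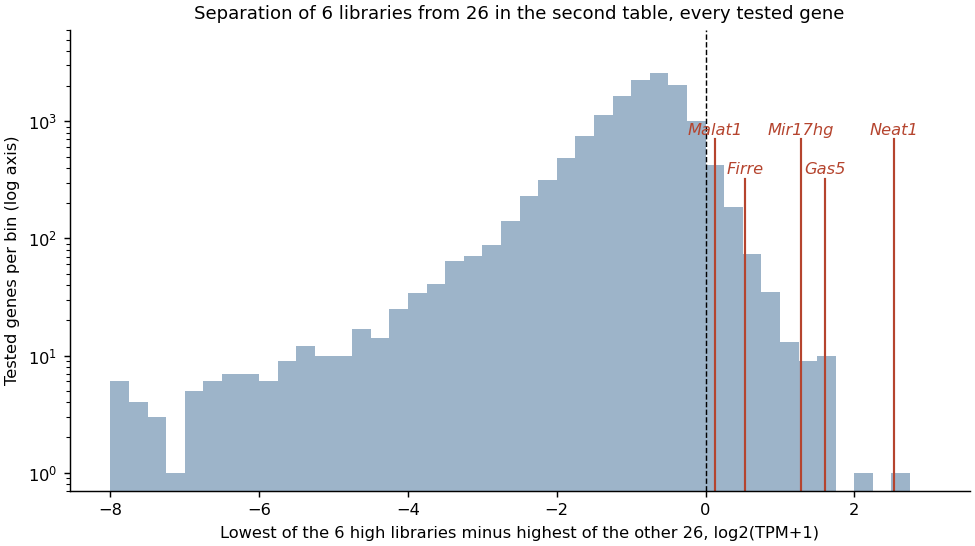
For every tested gene of the second table, the lowest of the 6 high libraries minus the highest of the other 26 in log2(TPM + 1) (horizontal axis), as the number of genes per bin (vertical axis, log scale), with values below -8 in the first bin. Red lines mark the 5 RNAs, from 0.13 for Malat1 to 2.54 for Neat1, and the dashed line at 0 marks complete separation.

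All 5 RNAs were wholly higher in the 6 libraries, as were 5.38% of all tested genes (744 of 13817), and 3 of the 5 by at least 1 on the log2 scale, as were 0.246% (34 genes). Since the split chose the RNAs, nothing is read from these counts. Of the 34, 10 (29.4%) were long non-coding in GENCODE M21, against 2.2% of tested genes, and 3 of those 10 are members here. The others included Snhg20, Snhg17, Snhg12 and 1810032O08Rik (listed as Snhg16), which are among the snoRNA hosts that set the 6 apart. Members and these hosts make up most of the 10, so nothing is read from the share of long non-coding genes. Dancr, also among the 10, had 16.1 to 29.9 TPM in the 6 and 1.21 to 4.81 TPM in the 26. In the other direction 39 genes (0.282%) were wholly lower in the 6, none by 1 on the log2 scale, and they included Rmrp, with 9.36 to 26.9 TPM in the 6 and 31.3 to 445 TPM in the 26.

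Genes that work with the RNAs split in part, beside 5.38% of all tested genes that were wholly higher in the 6. The lists are short and were written with earlier results known, so nothing is read from the counts that follow. Among nuclear speckle proteins 5 of 14 were wholly higher in the 6, with Son at 50.8 to 70.4 TPM and 24.1 to 49.4 TPM in the 26, and the splicing factor Srsf5 at 230.0 to 435.0 TPM and 69.2 to 172 TPM. Of the exosome and nonsense-mediated decay list 6 of 16 were, among them Smg1 and Smg5. Of 18 paraspeckle proteins only Ewsr1 was, with 256 to 338 TPM in the 6 and 178 to 242 TPM in the 26, and of 13 other nuclear non-coding RNAs only Ftx. None of the 9 miRNA processing genes, 20 p53 targets or 8 embryonic stem cell markers was, the last summing to 8798 to 12360 TPM in the 6.

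The 2 libraries of a group differed by 2-fold or more for 4.04% to 8.64% of genes in the 6 split groups and for 0.449% to 1.6% in the other 10. Deviations from the group mean over the 32 libraries, which all hold the same split, correlated at r = 0.92 to 0.97 among the 5 RNAs. The genes most like them by that measure were Pisd-ps1, Scai and Ttc14 for Neat1, Zbed6, Prkab2 and Zfp91 for Malat1, Slc25a37, Pisd-ps1 and Pnisr for Firre, Gpbp1l1, Trim39 and Cep83 for Gas5, and Mapkbp1, Znf512b and Vps37a for Mir17hg. Growth, RNA preparation and sequencing of the 6 libraries were not tested as sources of the split.

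The comparisons of the second table carry that split in their error. The RNAs were chosen for the split, so their wide errors and a lack of calls were largely set in advance. Nothing is read from the lack of calls below. By limma, 0 of 120 member results in 24 comparisons were called, and 0 had an unadjusted p below 0.05. The standard errors of the members were 1.0 to 1.41 on the log2 scale. For Setdb1 loss on the control, Suv39h1/2-DKO, G9a-KO and G9a;Suv39h1/2-TKO backgrounds, the share of all genes called was 2.52%, 1.64%, 4.96% and 3.31% without doxycycline and 2.63%, 1.72%, 4.14% and 3.37% with it. For doxycycline it was 0.181% in control, 0.166% in Setdb1-KO, 0.449% in Suv39h1/2-DKO, 0.246% in Suv39h1/2;Setdb1-TKO, 0.955% in G9a-KO, 1.05% in G9a;Setdb1-DKO, 0.456% in G9a;Suv39h1/2-TKO and 0.413% in QKO. For G9a loss without doxycycline it was 7.98%, 5.59%, 7.9% and 8.14% on the control, Suv39h1/2-DKO, Setdb1-KO and Suv39h1/2;Setdb1-TKO backgrounds. For Suv39h1/2 loss it was 1.56%, 1.31%, 1.5% and 1.69% on the control, G9a-KO, Setdb1-KO and G9a;Setdb1-DKO backgrounds. The largest member value was 2.303 for Neat1 in Setdb1-KO against control at 0.2 (limma adjusted p = 0.405), which sets 4.66 and 89.2 TPM in Setdb1-KO against 2.68 and 4.70 TPM in control. Of 7 interactions, which asked whether G9a, Suv39h1/2, Setdb1 or doxycycline effects depend on one another, 0 of 35 member results were called by limma, and 0 had an unadjusted p below 0.05. The share of all genes called was 0.919% for G9a by Suv39h1/2, 0.709% for Setdb1 by G9a and 0% for the other 5.

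With the 6 libraries left out, 13456 genes were tested and member SEs were 0.19 to 0.59. The 6 split groups then had 1 library each, assumed to vary like the rest, so member calls are not counted over the 24 comparisons. The Firre values that follow were picked from 120 member results for passing an adjusted p in this fit, and all were under 2-fold. They are a description, given without p-values. Firre was lower in QKO than in G9a;Suv39h1/2-TKO, with 0.62 and 0.69 TPM, against 1.21 and 1.93 TPM, without doxycycline (-0.62, SE 0.19, limma adjusted p = 0.0413, 3.92% of all genes called). At 1 it had 0.13 and 0.57 TPM in QKO, against 0.91 and 1.46 TPM in G9a;Suv39h1/2-TKO (-0.70, limma adjusted p = 0.0203, 3.89% called). In neither pair did the libraries overlap, and both changes were under 2-fold on the log2(TPM + 1) scale, which understates changes at such low levels. Several of these Firre values lie under the filter of 1 TPM, with the read depth unknown, so they are uncertain. In the first table the Firre libraries of QKO and G9a;Suv39h1/2-TKO overlapped. Firre also changed by 0.85 (limma adjusted p = 0.0107, 1.68% called) in G9a;Suv39h1/2-TKO without doxycycline, with 1.21 and 1.93 TPM, against 0.55 and 0.28 TPM in G9a-KO.

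Doxycycline, which turns on the Dux transgene, was set beside no doxycycline in the 4 genotypes in which neither group holds a high library. Neat1 had 2.85 and 2.48 TPM in QKO at 1, against 3.54 and 5.39 TPM in QKO without it. It had 2.13 and 4.44 TPM in G9a;Suv39h1/2-TKO at 1, against 4.19 and 5.5 TPM without it, where the libraries overlapped. In the lines with G9a, Neat1 had 3.41 and 4.82 TPM in Suv39h1/2-DKO at 1, against 3.58 and 4.23 TPM without it, and 4.03 and 3.97 TPM in Suv39h1/2;Setdb1-TKO at 1, against 4.22 and 3.82 TPM, overlapping in both. Malat1 had 13.3 and 20.4 TPM in G9a;Suv39h1/2-TKO at 1, against 6.57 and 13.0 TPM without it, and 11.6 and 9.32 TPM in Suv39h1/2-DKO at 1, against 7.49 and 6.91 TPM. In both genotypes the libraries did not overlap. They did in QKO, with 8.66 and 16.3 TPM at 1, against 6.58 and 9.67 TPM without it, and in Suv39h1/2;Setdb1-TKO, with 6.59 and 7.91 TPM at 1, against 8.08 and 5.77 TPM. With all libraries, none of these values was called by limma, and 0 of the 40 member results for doxycycline had an unadjusted p below 0.05. The split that chose the RNAs widens these errors, so the lack of calls does not show that the RNAs were unchanged.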

How the data were processed

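RNA from mouse embryonic stem cells was sequenced as paired reads on poly(A)-selected, strand-specific libraries, per the labels' protocols. The authors deposited levels as TPM in 2 tables, which were normalised separately and give no depth. STAR 2.7.10b, Bowtie2 2.3.4.1, RSEM 1.3.1, SAMtools 1.9 and the mm10 build are listed in the submitters' processing notes. The sources used here give neither their roles nor the gene annotation. Every column was matched to 1 sample, and 0 were left over. For each table, genes that reached 1 TPM in 2 or more libraries entered 1 fit of log2(TPM + 1) with limma 3.58.1 (R 4.3.3, trend) over all groups, with Benjamini-Hochberg adjustment within each comparison. The fit has 9 residual degrees of freedom in the first table and 16 in the second. It was also run on simulated noise that lacks the split of the second table, so that run is no check of the fit there. A call asks for an adjusted p below 0.05 and a log2 change of at least 1, which understates low genes. Interactions ask for the adjusted p alone. For comparisons with Setdb1-null libraries of the first table, which helped to choose the RNAs, p-values of the RNAs are not printed. Alternatives were a pseudocount of 0.1, no filter, median ratio scaling, replicate number as a block, each library left out, and the second table without the 6 high libraries.

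The 5 RNAs, the gene lists and the line of 4 for the snoRNA hosts were chosen with earlier results of these data known. The RNAs are named in every comparison, genes alike as the top 3 by correlation leaving out predicted names (1 of those for Firre is not reported here), and list genes as at most 3 called per comparison or 3 highest. Genes listed here as wholly higher or lower in the 6 libraries, and those chosen as examples of RNAs without a poly(A) tail, were named after their values were seen. Replicate numbers were not taken to pair the libraries: the labels do not say so, and not every pair of groups passed a correlation of 0.1 between deviations of same-numbered libraries (25 of 36 in the first table, median 0.268, -0.0585 to 0.622, and 66 of 120 in the second, median 0.124, -0.647 to 0.748). The mitochondrial genes listed to read RNA quality have 0 of 9 rows in these tables. Figures were drawn with matplotlib 3.10.9.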

Additional observations from a re-analysis of the deposited data

How the results depend on the processing

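No called value of the 5 RNAs changed direction under any alternative run, while 25 of 540 values of the first table and 158 of 1255 of the second, called in neither setting, changed sign in some alternative. In the first table the count past 2-fold for Setdb1 loss was 5, and 3 with median ratio scaling, which shifts the median of all genes in Setdb1-KO against control (-0.12 as deposited). With each library left out in turn it was 4 to 6. Mir17hg in G9a-KO against control, the 1 call for G9a loss with Setdb1 present, stayed between 1.07 and 1.23 over all 9 settings. For Suv39h1/2 loss with Setdb1 present, every member value stayed under 2-fold in every setting. Calls are not counted for comparisons that hold Setdb1-null libraries, which helped to choose the RNAs. Calls of the interaction in the first table were 0, and 1 (Mir17hg) with median ratio scaling. In the second table, Firre in G9a-KO against control stood at -3.66 when replicate 2 of the Tet-on-Dux control without doxycycline was left out. That leaves only the high library of this control group, so nothing is read from the value. With replicate number as a block, which the labels do not state to be a pairing and which 25 of 36 pairs of groups in the first table and 66 of 120 in the second followed at a correlation over 0.1, 0 of 225 member results changed their call, as with a pseudocount of 0.1 and with no filter.

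Counts over all genes depended more on the pseudocount: 13 to 1284 calls per comparison of the first table, against 22 to 2320 with a pseudocount of 0.1, more than 1.5 times in 13 of 13 comparisons. In the second table they were 23 to 1125, against 24 to 1693, past 1.5 times in 11 of 24, and 23 to 1198 without the 6 libraries, past it in 6 of 24. Depth is unknown and 2 libraries a group limit every error, so members that miss the threshold are not shown to be unchanged.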
